A study of Mus musculus with 12 samples.

Results

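The genes described here release, make and break down prostaglandins and leukotrienes, the lipid messengers known together as eicosanoids. In all, 10 genes were listed: the phospholipase genes Pla2g4a and Pla2g4e, the lipid phosphodiesterase gene Gdpd3, the prostaglandin genes Ptgs1, Ptgs2, Ptgds and Hpgd, and the leukotriene genes Alox5, Alox5ap and Lta4h. A gene was included when a probe set of the array carried its symbol and no other, which held for 9 of the 10, among 19938 such genes in all, with 1 probe set for each of the 9. Ptgs1 was not analysed here. Hpgd, Lta4h, Pla2g4e and Gdpd3 were chosen by their measured differences between these same groups, so their differences are described below with no p-value, and whether they were called is given only as the basis of that choice. The other 5 were listed for their place in the pathway, with results of these data already known.

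RNA of dissected striatum from male mice aged 90 days was hybridised to 12 Affymetrix whole-transcript arrays, 3 for each of 4 genotypes. The mice carried either the HdhQ111 allele, which encodes huntingtin with a long glutamine repeat and models Huntington's disease, or the HdhQ20 allele with a short repeat, on both copies of the gene. Each was combined with intact mGluR5 (mGluR5+/+) or with loss of mGluR5 (mGluR5-/-), a metabotropic glutamate receptor encoded by Grm5. The 4 groups were therefore HdhQ20/Q20 with mGluR5+/+, HdhQ20/Q20 with mGluR5-/-, HdhQ111/Q111 with mGluR5+/+, and HdhQ111/Q111 with mGluR5-/-, shortened below to Q20 or Q111 with the mGluR5 genotype. All groups shared the genetic background given as 129 * CD-1 * C57BL/6 * FV. Differences caused by an allele under study and those caused by strain variants that segregate in such a mixed background cannot be told apart. The labels do not say that each array came from a separate mouse, so the spread behind each p-value is that between samples and may be technical.

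Eicosanoids begin with arachidonic acid, which phospholipase A2 enzymes free from membrane phospholipids. Cyclooxygenases then turn it into the precursor of the prostaglandins, while 5-lipoxygenase, helped by its activating protein, turns it into the precursor of the leukotrienes. In the brain these messengers are made by neurons, glia and vessels, act through receptors on the cell surface and are known for roles in inflammation, blood flow, fever and synaptic signalling.

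The promoters of Hpgd, Lta4h, Pla2g4e and Gdpd3 are shown because these genes were chosen by their differences between the groups. RefSeq entries of the mouse build GRCm38.p6 matched 9 of the 10 listed genes, all but Alox5ap. Each window of 300 bases runs from 250 bases before the annotated start through the first 50 bases of the transcript. Capitals mark matches to 5 motifs searched on both strands: the TATA box as TATAAA, the binding motif of NF-Y as CCAAT, the GC box as GGGCGG, the E-box as CACGTG and the core of the cyclic AMP response element as TGACG. None of these motifs overlaps another where it is marked. The windows lie at chr8:56294302-56294601 (Hpgd, plus strand), chr10:93453146-93453445 (Lta4h, plus strand), chr2:120245286-120245585 (Pla2g4e, minus strand) and chr7:126766164-126766463 (Gdpd3, plus strand).
Hpgd: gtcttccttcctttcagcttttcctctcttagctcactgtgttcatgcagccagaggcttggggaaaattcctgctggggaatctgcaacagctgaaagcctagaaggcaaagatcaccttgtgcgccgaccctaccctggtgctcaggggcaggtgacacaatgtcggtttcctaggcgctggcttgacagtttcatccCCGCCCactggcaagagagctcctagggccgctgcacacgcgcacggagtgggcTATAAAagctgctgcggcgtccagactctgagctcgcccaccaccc
Lta4h: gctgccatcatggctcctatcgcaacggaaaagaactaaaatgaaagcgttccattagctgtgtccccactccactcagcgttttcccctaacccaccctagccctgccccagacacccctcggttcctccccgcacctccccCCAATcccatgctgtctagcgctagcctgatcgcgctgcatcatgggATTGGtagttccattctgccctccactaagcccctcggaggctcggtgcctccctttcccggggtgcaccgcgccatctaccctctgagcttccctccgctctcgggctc
Pla2g4e: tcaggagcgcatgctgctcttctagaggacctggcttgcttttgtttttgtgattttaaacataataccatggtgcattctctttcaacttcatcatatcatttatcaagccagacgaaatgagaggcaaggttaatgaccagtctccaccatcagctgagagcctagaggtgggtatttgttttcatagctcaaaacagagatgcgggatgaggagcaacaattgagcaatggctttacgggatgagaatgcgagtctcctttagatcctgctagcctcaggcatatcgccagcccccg
Gdpd3: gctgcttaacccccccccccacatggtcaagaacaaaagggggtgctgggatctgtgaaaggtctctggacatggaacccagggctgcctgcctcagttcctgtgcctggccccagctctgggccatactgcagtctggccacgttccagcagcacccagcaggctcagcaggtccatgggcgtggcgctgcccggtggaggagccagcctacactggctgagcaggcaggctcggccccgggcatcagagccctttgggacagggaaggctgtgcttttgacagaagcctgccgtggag

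The Hpgd window held GGGCGG on the opposite strand at -50 and TATAAA at +5, counting the annotated start base as +1. In the Lta4h window CCAAT stood at -107 and, on the opposite strand, at -60. The windows of Pla2g4e and Gdpd3 held none of the 5 motifs. Among 32851 RefSeq promoter windows of the same length, the TATA box motif was found in 13.6%, the NF-Y motif in 37.4%, the GC box in 35.7%, the E-box in 7.15% and the cyclic AMP element core in 20.8%. The matches are descriptions of letters and do not show that a factor binds.

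Signals are given on the log2 scale of robust multi-array averaging (RMA), on which 1 unit is a doubling. The median signal of an array lay between 7.05 and 7.16 and its 25th percentile between 5.69 and 5.94, a range in which probes respond little to RNA and differences can be understated. A gene was tested when it exceeded that percentile on at least 3 arrays, which left 16721 genes and all 9 of the genes described here. Grm5, the gene targeted in the mGluR5-/- mice, had signals of 10.93 to 11.17 on the 6 mGluR5-/- arrays and 11.85 to 12.08 on the 6 mGluR5+/+ arrays, with no overlap. The labels do not say which part of Grm5 was deleted. As a check of the tissue, 8 of 8 tested markers of striatal projection neurons, of 10 listed, lay above the 75th percentile on all 12 arrays. Limma called 0 of 73 tested markers of 9 cell types in any of 7 comparisons at an adjusted p below 0.05, while 51 of the 511 tests (9.98%) had an unadjusted p below 0.05. That share is pooled over the 7 comparisons. In single comparisons, the share over all tested genes was 6.84%, 9.44%, 6.02%, 4.36%, 5.37% and 5.32%, each below 9.98%. Only for Q111 averaged over the mGluR5 genotypes was it higher, at 11.4%. The part of cell composition in the marker differences was not tested. In bulk tissue, fewer cells of a type and less RNA per cell cannot be told apart.

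All 12 arrays entered the limma fit, p was adjusted by Benjamini-Hochberg across the 16721 genes, and calls were made at an adjusted p below 0.05. Of the 9 genes, Pla2g4a was the only one not chosen by its differences that was called in any of the 7 comparisons. It was called for the average of the Q111 differences over both mGluR5 genotypes, which called 1.32% of tested genes. The choice of Hpgd, Lta4h, Pla2g4e and Gdpd3 fixed all the other calls among the 9, and nothing is read from their number in any comparison. Q111 against Q20 with mGluR5 called 0.574% of tested genes, with Hpgd and Lta4h among them, and without mGluR5 it called 0.885%, with Pla2g4e and Gdpd3 among them. Loss of mGluR5 called 0.299% in Q20, which included Hpgd, and 0.275% in Q111, which included Pla2g4e. The averaged Q111 difference included Hpgd, Pla2g4e and Gdpd3 beside Pla2g4a. The average of the mGluR5 differences over both Hdh alleles called 0.293%, which included Hpgd and Pla2g4e. The interaction, which is the Q111 difference without mGluR5 less that with mGluR5, called 0.437%, which included Hpgd, Lta4h and Pla2g4e.

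**Figure D1:**
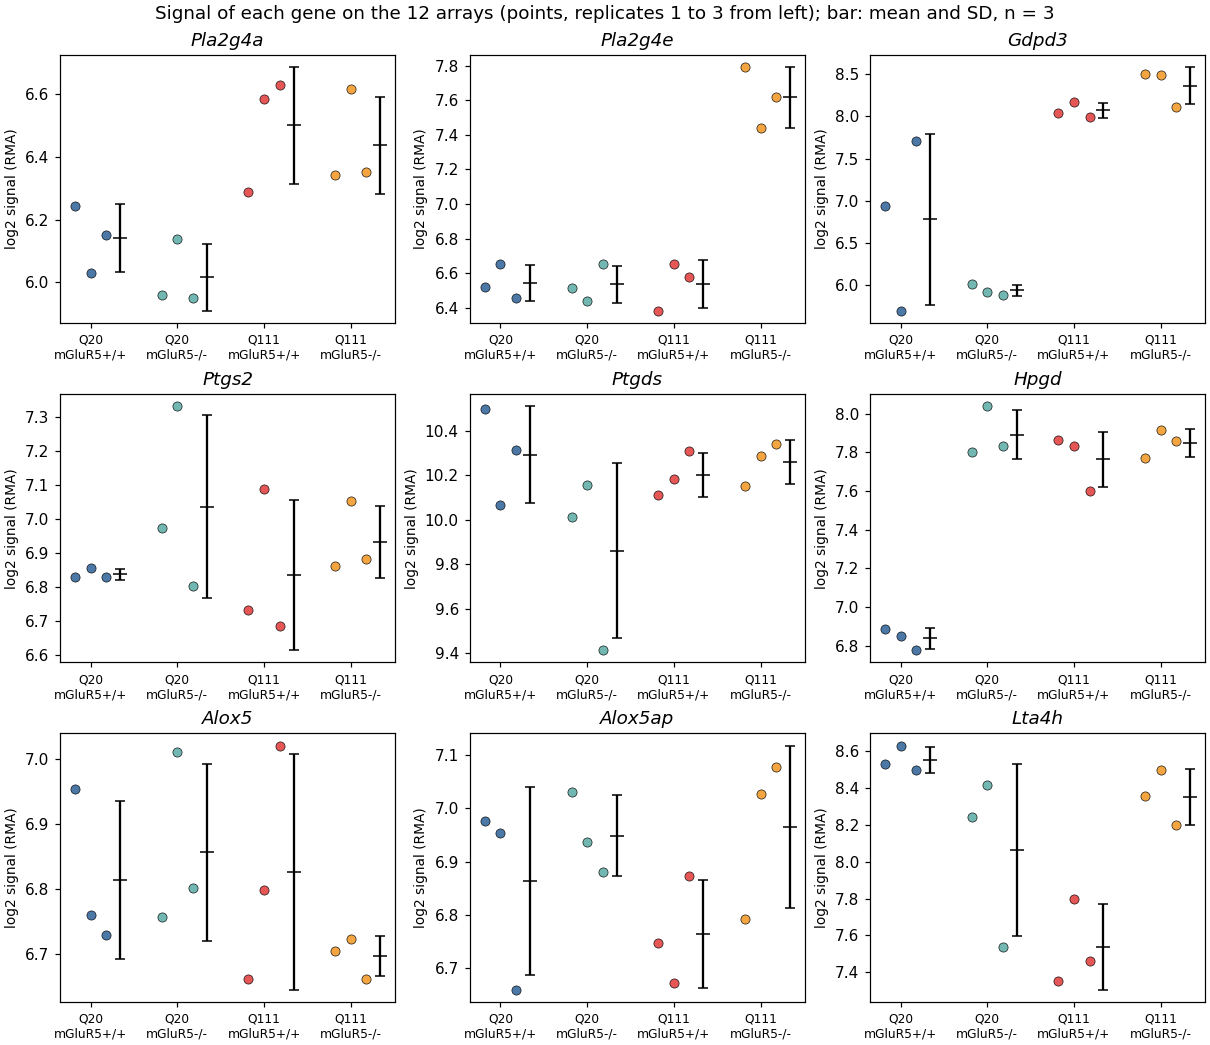
Log2 RMA signal of the 9 genes on each of the 12 arrays, with replicates 1 to 3 from left to right in each genotype group and the mean and SD (n = 3) beside them; each panel has its own scale. Hpgd was low in Q20 mGluR5+/+ alone of the 4 groups, Pla2g4e was high in Q111 mGluR5-/- alone, and Gdpd3 and Pla2g4a were higher on all 6 Q111 arrays than on all 6 Q20 arrays.

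Among the enzymes that release lipids from membranes, Pla2g4a was higher with the Q111 allele when averaged over the mGluR5 genotypes. Pla2g4a encodes cytosolic phospholipase A2 alpha, the calcium-dependent enzyme best known for freeing arachidonic acid. Its signals were 6.24, 6.03 and 6.15 in Q20 mGluR5+/+ and 5.96, 6.14 and 5.95 in Q20 mGluR5-/-. They were 6.29, 6.58 and 6.63 in Q111 mGluR5+/+ and 6.34, 6.61 and 6.35 in Q111 mGluR5-/-. All 6 Q111 arrays stood above all 6 Q20 arrays, with a gap of 0.04 between the highest Q20 and the lowest Q111 signal. Such a separation, with Q111 above Q20, was found in 0.437% of tested genes.

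Averaged over the mGluR5 genotypes, Pla2g4a rose by 0.39 ± 0.08 log2 units (SE), a fold change of 1.31, with an adjusted p of 0.0273 in limma. Its Q20 signals lay near the 25th percentile of the arrays, so the size is uncertain and may be understated. The difference was 0.36 with mGluR5 and 0.42 without it, each with an SE of 0.11, and neither comparison alone passed (adjusted p of 0.327 and 0.127 in limma). Loss of mGluR5 gave differences in Pla2g4a of -0.13 in Q20 and -0.06 in Q111, with adjusted p of 0.998 and 0.9999 in limma. The averaged call was lost when replicate 2 or 3 of Q20 mGluR5+/+, replicate 1 or 3 of Q20 mGluR5-/-, replicate 3 of Q111 mGluR5+/+ or replicate 2 of Q111 mGluR5-/- was left out, with adjusted p of 0.0867, 0.0683, 0.0875, 0.0659, 0.0605 and 0.0738 in that order. It was also lost after quantile normalization (adjusted p of 0.0666 in limma) and with an unmoderated linear model (0.107). With array weights the Pla2g4a difference was 0.20 with mGluR5 and 0.44 without it (adjusted p of 0.177 and 0.00347 in limma), and the interaction moved from 0.06 to 0.24.

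Endothelial markers were lower in Q111 beside these differences. Of 9 tested, of 10 listed, 0 were higher for Q111 with mGluR5 (median log2 change -0.19) and 1 was higher without it (median -0.31), where 45.9% and 43.3% of all tested genes were higher. The mean over these markers ranged from 7.44 to 7.67 in Q20 mGluR5+/+, from 7.57 to 7.64 in Q20 mGluR5-/-, from 7.26 to 7.55 in Q111 mGluR5+/+ and from 7.30 to 7.55 in Q111 mGluR5-/-. Q20 and Q111 overlapped. The part of these cells in the Q111 differences of Pla2g4a, Pla2g4e, Gdpd3, Hpgd and Lta4h was not tested.

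Pla2g4e was high in the Q111 mice without mGluR5 and lower in the other 3 groups. It encodes cytosolic phospholipase A2 epsilon, known as a calcium-dependent N-acyltransferase that makes N-acyl phosphatidylethanolamines, precursors of anandamide and related lipids. The Q111 mGluR5-/- arrays gave 7.79, 7.44 and 7.62. Signals of Pla2g4e were 6.52, 6.65 and 6.46 in Q20 mGluR5+/+, 6.51, 6.44 and 6.65 in Q20 mGluR5-/-, and 6.38, 6.65 and 6.58 in Q111 mGluR5+/+. The lowest Q111 mGluR5-/- array lay 0.79 above the highest of the other 9. How common such a gap is among all tested genes was not counted, so nothing is read from it. The 3 lower groups had means of 6.54, 6.53 and 6.54 and overlapped fully. These means lay below the array medians, so the size of the difference is uncertain.

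Loss of mGluR5 came with a difference in Pla2g4e of 1.08 ± 0.11 log2 units (SE) in Q111 and of -0.01 ± 0.11 in Q20. The Q111 allele came with 1.08 ± 0.11 without mGluR5 and -0.01 ± 0.11 with it. The 2 differences of 1.08, about 2.12-fold each, share the Q111 mGluR5-/- arrays and are not separate observations. Leaving out any 1 array kept both between 0.99 and 1.17. The family members Pla2g4d and Pla2g4f lie next to Pla2g4e on chromosome 2. Pla2g4d ranged from 5.88 to 6.26 over the 12 arrays and differed by 0.01 ± 0.11 with loss of mGluR5 in Q111 (adjusted p of 0.9999 in limma). Pla2g4f ranged from 5.62 to 5.96 and differed by -0.02 ± 0.10 (adjusted p of 0.9999 in limma). Both lay near the 25th percentile of the arrays, where a difference would be understated, so the values say little about these neighbours.

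Gdpd3 showed the widest differences of the 9 genes, and also the widest spread within a group. It encodes a glycerophosphodiester phosphodiesterase known as a lysophospholipase D, which cuts lysophospholipids to lysophosphatidic acid. Signals were 8.04, 8.17 and 7.996 in Q111 mGluR5+/+ and 8.50, 8.48 and 8.11 in Q111 mGluR5-/-. They were 6.02, 5.92 and 5.88 in Q20 mGluR5-/-, close to the 25th percentile of those arrays. The Q20 mGluR5+/+ arrays did not agree among themselves, with 6.94, 5.70 and 7.71. Every Q111 array was above every Q20 array, by at least 0.29, a separation found in 0.437% of tested genes.

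Without mGluR5, Gdpd3 was 2.42 ± 0.32 log2 units (SE) higher in Q111 than in Q20, a fold change of 5.36. The Q20 mean there was near the floor of the arrays, so the size is uncertain. With mGluR5 the difference was 1.29 ± 0.32, and it was 0.74 without replicate 2 of Q20 mGluR5+/+ and 1.75 without replicate 3. Loss of mGluR5 gave -0.84 ± 0.32 in Q20, -1.38 without that replicate 2 and -0.38 without that replicate 3. In Q111 it gave 0.30 ± 0.32. Replicate 2 of Q20 mGluR5+/+, the array with the lowest Gdpd3 signal, also had the lowest mean over 9 tested oligodendrocyte markers, of 10 listed, at 10.17. These means ranged from 10.17 to 10.42 in Q20 mGluR5+/+, from 10.29 to 10.50 in Q20 mGluR5-/-, from 10.27 to 10.54 in Q111 mGluR5+/+ and from 10.43 to 10.50 in Q111 mGluR5-/-. They overlapped between Q20 and Q111, where Gdpd3 did not, and their part in the Gdpd3 result was not tested.

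Among the prostaglandin genes, those that make the lipids gave no call, whereas Hpgd, which breaks them down, separated 1 group from the rest. Ptgs2 encodes cyclooxygenase 2, the inducible enzyme that commits arachidonic acid to prostaglandins and is present in excitatory neurons of the forebrain. Its signals were 6.83, 6.86 and 6.83 in Q20 mGluR5+/+, 6.97, 7.33 and 6.80 in Q20 mGluR5-/-, 6.73, 7.09 and 6.68 in Q111 mGluR5+/+, and 6.86, 7.05 and 6.88 in Q111 mGluR5-/-. The groups overlapped. The largest of the 4 differences between groups was 0.20 ± 0.13, for loss of mGluR5 in Q20, with an adjusted p of 0.955 in limma. All Ptgs2 signals but that of replicate 2 of Q20 mGluR5-/- lay below the median of their array, so differences may be understated. Replicate 2 gave the highest Ptgs2 signal in each of the 4 groups. The same arrays had the widest interquartile range of signals in each group, at 2.88, 2.95, 2.93 and 2.80, and the part of that spread in the Ptgs2 signals was not tested.

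Ptgds encodes the lipocalin-type prostaglandin D synthase, abundant in meninges, choroid plexus and oligodendrocytes. Its signals were 10.50, 10.07 and 10.32 in Q20 mGluR5+/+ and 10.01, 10.16 and 9.41 in Q20 mGluR5-/-. In Q111 they were 10.11, 10.18 and 10.31 with mGluR5 and 10.15, 10.29 and 10.34 without it. A single array, replicate 3 of Q20 mGluR5-/-, stood well below the other 11. Loss of mGluR5 in Q20 gave -0.43 ± 0.16 for Ptgds (adjusted p of 0.605 in limma), and -0.21 without that array. On it, the mean over 7 tested choroid plexus markers was 6.82, within 6.43 to 6.98 over all arrays, and that over 9 tested markers of leptomeninges and fibroblasts was 7.23, within 6.97 to 7.31. The oligodendrocyte mean was 10.29 there, the lowest of its group. The part of these cells in the low Ptgds signal was not tested.

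Hpgd was low in Q20 mGluR5+/+ and higher by a similar amount in the other 3 groups. It encodes 15-hydroxyprostaglandin dehydrogenase, the enzyme that takes the first step in inactivating prostaglandins. Signals were 6.89, 6.85 and 6.78 in Q20 mGluR5+/+. They were 7.80, 8.04 and 7.83 in Q20 mGluR5-/-, 7.86, 7.83 and 7.60 in Q111 mGluR5+/+, and 7.77, 7.92 and 7.86 in Q111 mGluR5-/-. The highest Q20 mGluR5+/+ array lay 0.71 below the lowest of the other 9, and those 9 overlapped between their groups. The share of all tested genes with such a separation was not counted, so nothing is read from it.

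With mGluR5, Hpgd was 0.93 ± 0.10 log2 units (SE) higher in Q111 than in Q20, a fold change of 1.90. In Q20, it was 1.05 ± 0.10 higher without mGluR5 than with it, a fold change of 2.08. Both comparisons use the same 3 Q20 mGluR5+/+ arrays, so they are not separate observations. Starting from a group that was already high, the second change came with little further difference: 0.09 ± 0.10 for loss of mGluR5 in Q111 and -0.04 ± 0.10 for Q111 without mGluR5. The 3 high groups had means of 7.89, 7.76 and 7.85, with SDs of 0.13, 0.14 and 0.07 (n = 3 each).

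In the leukotriene branch, the enzyme and helper at its head gave no call, and Lta4h varied more widely. Alox5 encodes 5-lipoxygenase, an enzyme mostly of myeloid cells. Its signals were 6.95, 6.76 and 6.73 in Q20 mGluR5+/+, 6.76, 7.01 and 6.80 in Q20 mGluR5-/-, 6.66, 6.80 and 7.02 in Q111 mGluR5+/+, and 6.70, 6.72 and 6.66 in Q111 mGluR5-/-. The groups overlapped, and the differences of Alox5 lay between -0.16 and 0.04 with an SE of 0.11 (adjusted p from 0.713 to 0.9999 in limma). Alox5ap encodes the membrane protein FLAP, which presents arachidonic acid to 5-lipoxygenase. It gave 6.98, 6.95 and 6.66 in Q20 mGluR5+/+, 7.03, 6.94 and 6.88 in Q20 mGluR5-/-, 6.75, 6.67 and 6.87 in Q111 mGluR5+/+, and 6.79, 7.03 and 7.08 in Q111 mGluR5-/-. Here too the groups overlapped, and the differences lay between -0.10 and 0.20 with an SE of 0.11 (adjusted p from 0.979 to 0.9999 in limma). Every Alox5 and Alox5ap signal lay below the median of its array, so differences may be understated. The mean over 9 tested microglia markers, of 10 listed, ranged from 8.25 to 8.54 over the 12 arrays, and its ranges in the 4 groups overlapped.

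Lta4h was lowest in Q111 mGluR5+/+. It encodes leukotriene A4 hydrolase, which makes leukotriene B4 and also acts as an aminopeptidase. Signals were 8.53, 8.63 and 8.50 in Q20 mGluR5+/+, and 7.35, 7.80 and 7.46 in Q111 mGluR5+/+, a gap of 0.70 between those groups. They were 8.36, 8.50 and 8.20 in Q111 mGluR5-/-, at least 0.40 above every Q111 mGluR5+/+ array. In Q20 mGluR5-/- they were 8.24, 8.42 and 7.54. Replicates 1 and 2 of that group lay with the high groups and replicate 3 with the low one. Gaps between groups of 3 arrays were not counted over all tested genes, so nothing is read from those of Lta4h.

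With mGluR5, Lta4h was 1.01 ± 0.18 log2 units (SE) lower in Q111 than in Q20, a fold change of 2.02. Within Q111 it was 0.81 ± 0.18 higher without mGluR5 than with it, a fold change of 1.76. These share the 3 Q111 mGluR5+/+ arrays. Loss of mGluR5 in Q20 gave -0.49 ± 0.18, which was -0.22 without replicate 3 of Q20 mGluR5-/-. Q111 against Q20 without mGluR5 gave 0.29 ± 0.18, which was 0.02 without that array. It was also the array with the lowest Ptgds signal. When any 1 array was left out, the difference for Q111 with mGluR5 stayed between -1.14 and -0.92.

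**Figure D2:**
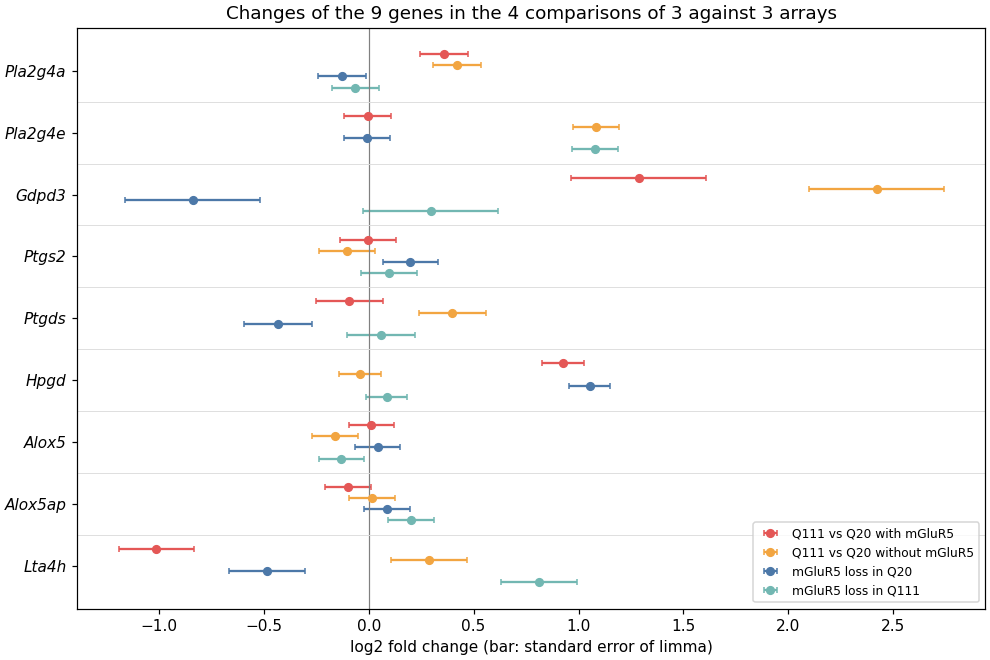
Log2 fold change (points) with the standard error of limma (bars) for the 9 genes in the 4 comparisons of 3 against 3 arrays, coloured by comparison. Hpgd stood at 0.93 and 1.05 in the comparisons against Q20 mGluR5+/+, Pla2g4e at 1.08 in the comparisons that hold Q111 mGluR5-/-, Lta4h at -1.01 and 0.81 in those that hold Q111 mGluR5+/+, and the bars of Gdpd3 were the widest.

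Thus the 4 genes chosen for their differences had 4 different patterns over the groups. The differences of the differences (Q111 minus Q20 without mGluR5, less the same with mGluR5) were -0.97 ± 0.14 for Hpgd, 1.30 ± 0.25 for Lta4h, 1.09 ± 0.16 for Pla2g4e and 1.14 ± 0.45 for Gdpd3. Pla2g4a had 0.06 ± 0.16 and Ptgds 0.49 ± 0.23, the latter with an adjusted p of 0.915 in limma. The Gdpd3 value was 1.68 without replicate 2 of Q20 mGluR5+/+ and 0.67 without replicate 3, and the Ptgds value was 0.27 without replicate 3 of Q20 mGluR5-/-.

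The genes whose signals most resembled each of these 4 over the 12 arrays were found by Pearson's r, as a description of values that share the same arrays. For Hpgd they were Dusp26, a phosphatase gene (r = 0.939), Fut10, a glycosyltransferase gene (r = 0.936), and Baalc (r = 0.930). Dusp26 and Fut10 lie on chromosome 8 as Hpgd does, 83 and 79 tested genes before it, and Baalc lies on chromosome 15. None of the 5 tested genes on either side of Hpgd was called in any of the 7 comparisons.

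Pla2g4e was most like Stk10, a kinase gene (r = 0.938), Entpd4, which encodes a nucleotide hydrolase (r = 0.937), and Trappc2l, which encodes a vesicle-tethering subunit (r = 0.908). They lie on chromosomes 11, 14 and 8, whereas Pla2g4e lies on chromosome 2. Gdpd3, on chromosome 7, was most like Rab37, a small GTPase gene on chromosome 11 (r = 0.918), the protease gene Klk6 (r = 0.897) and the annexin gene Anxa4 on chromosome 6 (r = 0.882). Klk6, known from oligodendrocytes, is on chromosome 7 as well, 634 tested genes from Gdpd3. Its group means were 7.83 in Q20 mGluR5+/+, 7.68 in Q20 mGluR5-/-, 8.55 in Q111 mGluR5+/+ and 8.69 in Q111 mGluR5-/-. Grm5 is also on chromosome 7. None of the 5 tested genes on either side of Pla2g4e or Gdpd3 was called in any of the 7 comparisons.

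Lta4h was most like Ndufa12, which encodes a subunit of mitochondrial complex I (r = 0.928), Mrpl41, which encodes a mitochondrial ribosomal protein (r = 0.919), and Pcdhb11, a protocadherin gene (r = 0.865). Ndufa12 lies on chromosome 10 as Lta4h does, 10 tested genes after it, and Mrpl41 on chromosome 2. Ndufa12 gave 10.08, 9.81 and 9.89 in Q20 mGluR5+/+, 9.65, 9.82 and 8.96 in Q20 mGluR5-/-, 9.29, 9.44 and 9.18 in Q111 mGluR5+/+, and 9.88, 9.94 and 9.66 in Q111 mGluR5-/-. Replicate 3 of Q20 mGluR5-/- was thus low for Ndufa12 as well as for Lta4h.

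Of the 5 tested genes on either side of Lta4h, 1 was called. Cfap54, a gene of motile cilia that lies 3 tested genes before it, varied the opposite way (r = -0.784 with Lta4h). It gave 7.87, 8.08 and 7.74 in Q20 mGluR5+/+, 8.98, 9.05 and 9.48 in Q20 mGluR5-/-, 9.42, 9.66 and 9.45 in Q111 mGluR5+/+, and 7.92, 7.64 and 7.47 in Q111 mGluR5-/-. Cfap54 was high in both groups in which low Lta4h signals occurred. Within Q20 mGluR5-/-, its highest array was replicate 3, where Lta4h was lowest.

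**Figure D3:**
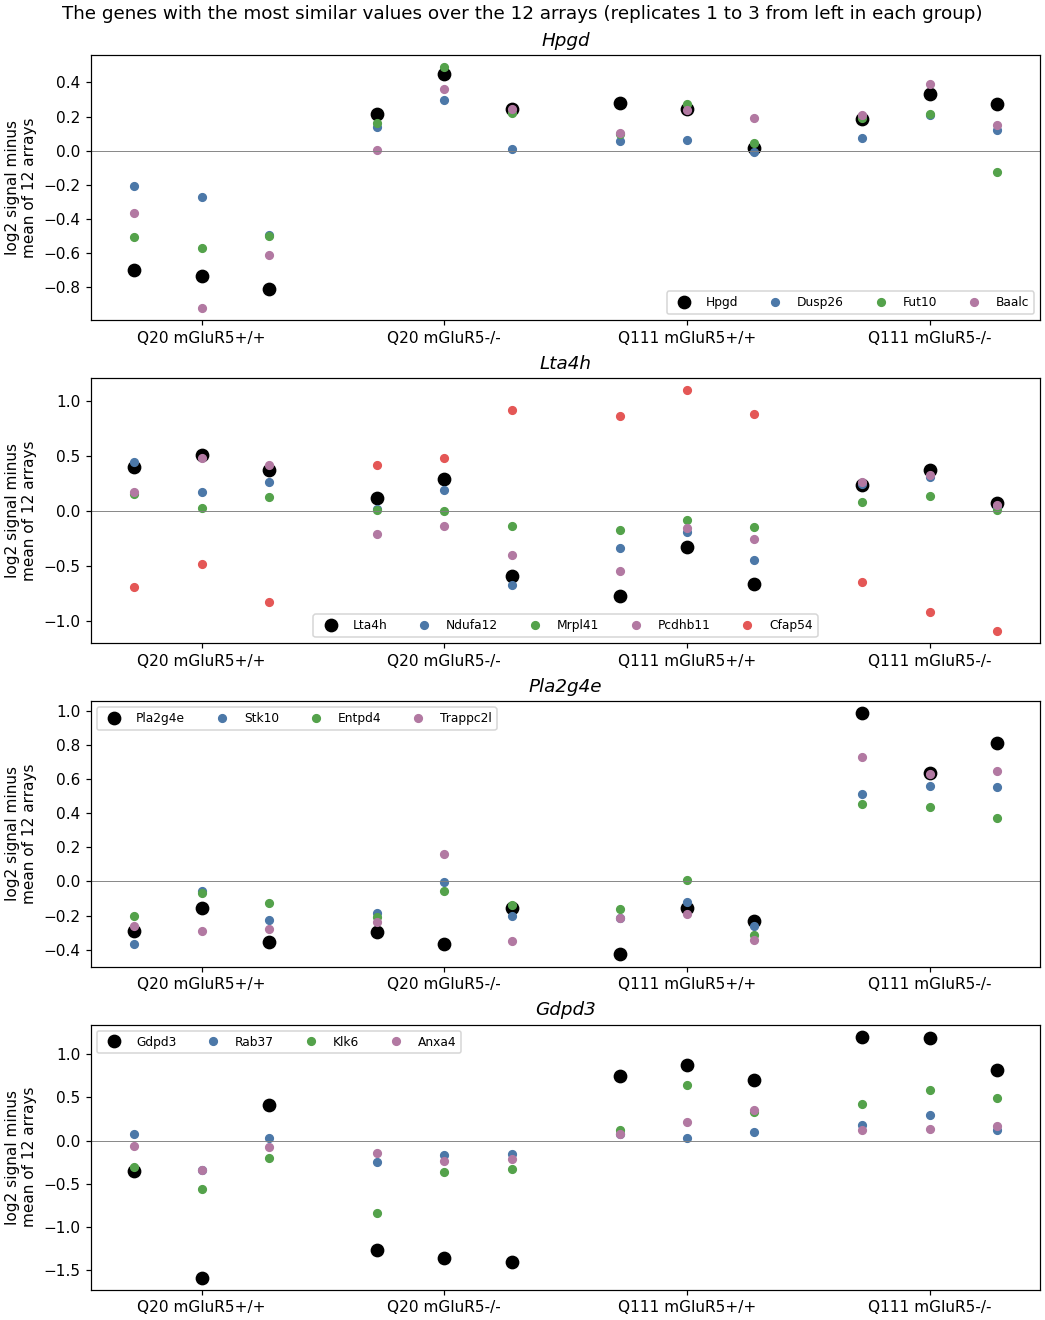
Log2 signal minus the gene's mean over the 12 arrays (y axis) for Hpgd, Lta4h, Pla2g4e and Gdpd3 (large black points) and the 3 genes most like each (small coloured points), with replicates 1 to 3 from left in each genotype group; Cfap54, a called neighbour, is added to the Lta4h panel. Lta4h and Ndufa12 share a low replicate 3 in Q20 mGluR5-/-, and Cfap54 runs opposite to Lta4h with r = -0.784.

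The rest of the pathway was read from a list of 112 genes in 10 roles. Of the 102 that are not among the 10 genes above, 96 had a probe set and 88 were tested. Limma called 1 of the 88 in 2 of the 7 comparisons and 0 in the other 5. The called gene was Ptger4, which encodes the prostaglandin E2 receptor EP4 and was lower without mGluR5. An unmoderated linear model called 0 of the 88 in each of the 7 comparisons. The share of all tested genes called by that model is not given here, so nothing is read from this count. At an unadjusted p below 0.05, the numbers were 7 and 9 for Q111 against Q20 with and without mGluR5, 5 and 5 for loss of mGluR5 in Q20 and in Q111, 7 for the interaction, and 10 and 6 for the averaged Q111 and mGluR5 differences. As shares of the list these were 7.95%, 10.2%, 5.68%, 5.68%, 7.95%, 11.4% and 6.82%, beside 6.84%, 9.44%, 6.02%, 4.36%, 5.37%, 11.4% and 5.32% of all tested genes.

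The directions of the 88 genes were close to those of all genes for Q111 within each mGluR5 genotype. For loss of mGluR5, a larger share of the list than of all genes was higher. For Q111 against Q20, 39 of the 88 were higher with mGluR5 and 36 without it, with median log2 changes of -0.01 and -0.03 against -0.01 and -0.02 over all tested genes. For loss of mGluR5, 59 of the 88 were higher in Q20 and 53 in Q111, with medians of 0.03 and 0.02 against 0.02 and 0.01. In Q20 that is 67.0% of the list, beside 57.0% of all tested genes, and in Q111 60.2% beside 52.6%. The averaged mGluR5 difference gave 64.8% beside 57.0%. Shares of the list were also larger for the averaged Q111 difference (50% beside 43.4%) and the interaction (52.3% beside 46.4%). Whether any of these shares differ was not tested, so nothing is read from them. The differences in the 4 comparisons of 3 against 3 arrays ran from -0.54 for Ptger4 to 0.47 for Pla2g12a.

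Ptger4 had signals of 7.22, 7.17 and 6.97 in Q20 mGluR5+/+ and 6.66, 6.59 and 6.48 in Q20 mGluR5-/-. In Q111 they were 7.20, 7.20 and 7.16 with mGluR5 and 6.89, 7.11 and 6.91 without it. Every mGluR5-/- array lay below every mGluR5+/+ array of the same Hdh allele, though in Q111 the nearest signals were 7.11 and 7.16. Ptger4 is described because it was called, and such a separation goes with a call. The share of all tested genes separated in this way was not counted, so nothing is read from it. In Q20, Ptger4 fell by 0.54 ± 0.10 log2 units (SE) with loss of mGluR5, a fold change of 1.46 (adjusted p of 0.0238 in limma). In Q111 the difference was -0.22 ± 0.10 (adjusted p of 0.9999), and averaged over both alleles it was -0.38 ± 0.07 (adjusted p of 0.0269 in limma).

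The Ptger4 call in Q20 was lost when replicate 1 or 2 of Q20 mGluR5+/+ or any 1 of the Q20 mGluR5-/- arrays was left out, with adjusted p of 0.115, 0.129, 0.0740, 0.0888 and 0.119 in limma. The averaged Ptger4 call was lost without each of those 5 arrays, without replicate 1 of Q111 mGluR5+/+ and without replicate 1 or 3 of Q111 mGluR5-/-, with adjusted p from 0.0583 to 0.101. Both were also lost after median centring (adjusted p of 0.0613 and 0.0641) and with an unmoderated linear model (0.0869 and 0.0900).

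Among the other phospholipases, Pla2g12a, which encodes a secreted form, came closest. Its signals were 7.45, 7.30 and 7.43 in Q20 mGluR5+/+, 7.87, 7.75 and 7.97 in Q20 mGluR5-/-, 7.72, 7.68 and 7.87 in Q111 mGluR5+/+, and 7.49, 7.61 and 7.73 in Q111 mGluR5-/-. With loss of mGluR5 in Q20 it was 0.47 ± 0.10 higher, which did not pass (adjusted p of 0.0617 in limma). The order of its group means resembled that of Hpgd in that Q20 mGluR5+/+ was lowest, but its Q111 mGluR5-/- arrays lay closer to that group. Pla2g6, a calcium-independent phospholipase, had its smallest p for Q111 without mGluR5, at 0.26 ± 0.12 (adjusted p of 0.521 in limma).

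The remaining genes named are the pair with the smallest p in each role, and none of them passed. Among the phosphodiesterases related to Gdpd3, Gpcpd1 had an averaged Q111 difference of -0.30 ± 0.09 (adjusted p of 0.141 in limma), and Gde1 differed by 0.25 ± 0.09 with loss of mGluR5 in Q111 (adjusted p of 0.819). Of the lipases of the endocannabinoid route, Abhd6, which hydrolyses 2-arachidonoylglycerol, differed by 0.37 ± 0.09 with loss of mGluR5 in Q111 (adjusted p of 0.178). Naaa, an amidase of N-acylethanolamines, differed by -0.29 ± 0.11 for Q111 without mGluR5 (adjusted p of 0.380). Of the acyltransferases that return fatty acids to phospholipids, Mboat1 differed by 0.22 ± 0.09 for Q111 without mGluR5 (adjusted p of 0.393) and Lpcat2 by -0.21 ± 0.10 for the averaged Q111 difference (adjusted p of 0.442).

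In the prostaglandin branch, the thromboxane synthase gene Tbxas1 had an averaged Q111 difference of -0.34 ± 0.09 (adjusted p of 0.108 in limma). For the prostaglandin E synthase gene Ptges3 that difference was -0.13 ± 0.08 (adjusted p of 0.602). Ptgr2, a prostaglandin reductase gene that acts after Hpgd, differed by -0.31 ± 0.16 for Q111 without mGluR5 (adjusted p of 0.580). Slco2a1, the prostaglandin transporter gene, had 0.11 ± 0.09 for the averaged Q111 difference (adjusted p of 0.674), and the receptor gene Ptger1 had 0.14 ± 0.10 for loss of mGluR5 in Q111 (adjusted p of 0.9999).

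In the leukotriene branch, the leukotriene C4 synthase gene Ltc4s differed by 0.24 ± 0.11 with loss of mGluR5 in Q20 (adjusted p of 0.807 in limma) and Dpep2, a dipeptidase gene, by 0.18 ± 0.09 for the averaged Q111 difference (adjusted p of 0.457). The cysteinyl leukotriene receptor gene Cysltr1 had an interaction of -0.35 ± 0.15 (adjusted p of 0.840), and the related receptor gene Gpr17 an averaged mGluR5 difference of -0.17 ± 0.11 (adjusted p of 0.9998). In the cytochrome P450 route, Cyp4f14 and Cyp4f15, of a family that inactivates leukotriene B4, differed by -0.53 ± 0.13 and -0.52 ± 0.14 for Q111 with mGluR5 (adjusted p of 0.117 and 0.187). Such near-identical family members can share probes, so the pair may not be separate measurements.

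**Figure D4:**
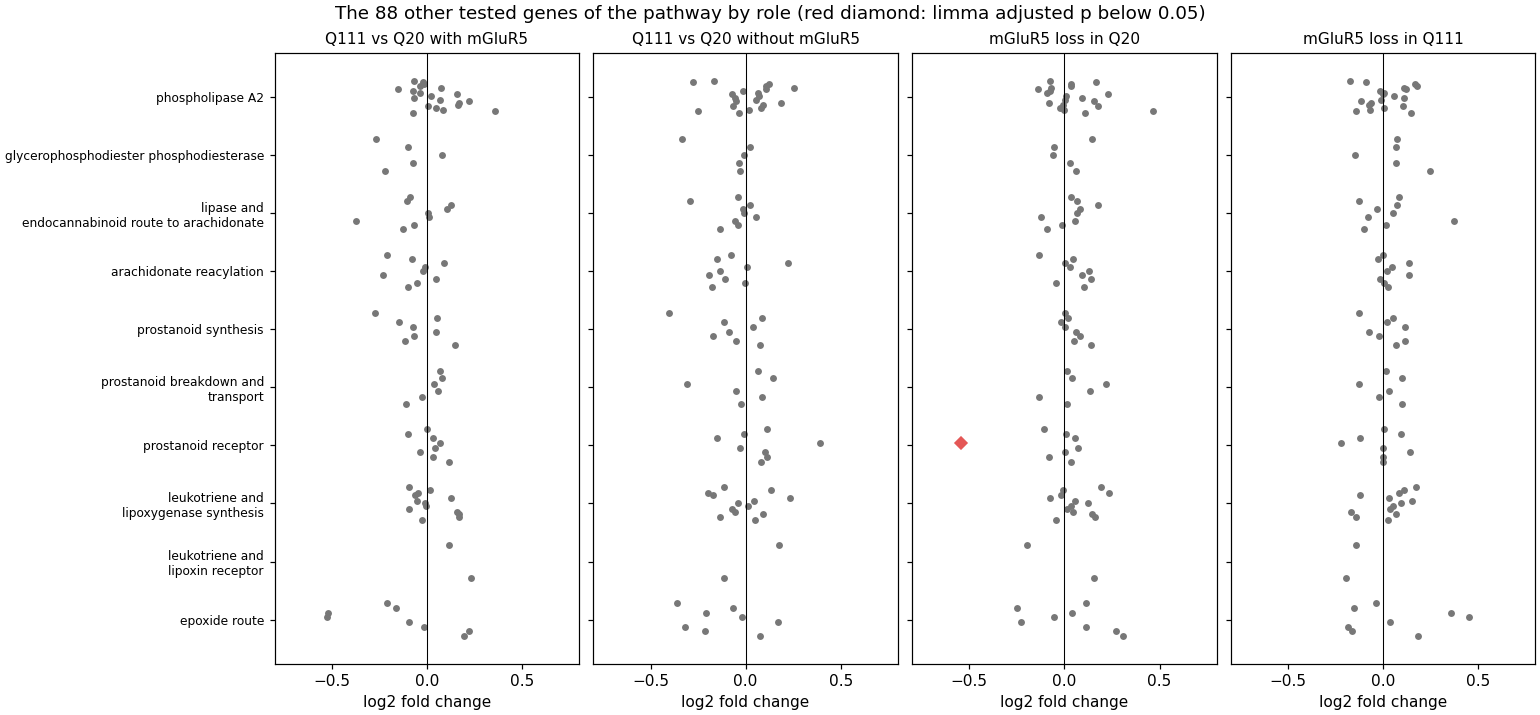
Log2 fold change (x axis) of the 88 other tested pathway genes, 1 point a gene, by role (rows) in the 4 comparisons of 3 against 3 arrays; the red diamond marks a limma adjusted p below 0.05. The only diamond is Ptger4 for loss of mGluR5 in Q20, at -0.54, and the other points spread on both sides of 0 in most roles.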

How the data were processed

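RNA of 12 striatum samples was measured on Affymetrix whole-transcript arrays. The deposited table holds log2 signals of 35556 probe sets, made by the authors with RMA in Partek, per the submitters' processing notes, while the series' own text names Partek Genomics Suite 6.5. Versions of other tools are not given in the sources used here. No further normalization was applied.

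Of the probe sets, 21789 had a single gene symbol in the platform annotation, 1621 several and 12146 none, which left 19938 genes after the probe set with the highest mean was kept. Genes above an array's 25th percentile on at least 3 arrays were tested with limma (version 3.58.1, R 4.3.3), which fitted a mean per genotype group and 7 contrasts, followed by Benjamini-Hochberg adjustment. Fits had 8 residual and 6.88 prior degrees of freedom and were tested on simulated data. Within a group, no 2 arrays were copies: the SD of their differences was 0.242 to 0.427. The precision is limited by 3 arrays a group.

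The genes and lists were chosen with earlier results of these data known. Named were all members, each other pathway gene called, the 2 of each role with the smallest p, the 3 genes most correlated with Hpgd, Lta4h, Pla2g4e and Gdpd3, and called neighbours within 5 genes. Summaries and plots used Python 3.11.15 and matplotlib 3.10.9. Alternatives covered filters, centring, quantile normalization, array weights, an intensity trend, the compared groups alone, an unmoderated model, the array's interquartile range, a replicate block, and each array left out.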

Additional observations from a re-analysis of the deposited data

Results flagged for a closer look

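For 3 genes, the difference between Q111 and Q20 was not the same with and without mGluR5. These genes were chosen by such differences, so the values are a description. For Hpgd, the Q111 difference without mGluR5 less that with mGluR5 was -0.97 ± 0.14 log2 units (SE), from -0.04 and 0.93. For Lta4h it was 1.30 ± 0.25, from 0.29 and -1.01, and replicate 3 of Q20 mGluR5-/- moved the first of these to 0.02. For Pla2g4e it was 1.09 ± 0.16, from 1.08 and -0.01. Gdpd3 had a larger value of 1.14 ± 0.45, but it was not called and so was not flagged. When 1 array was left out, the Lta4h interaction lost its call in 9 of 12 fits.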

How the results depend on the processing

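Over the alternatives, no called difference of the 9 genes or of Ptger4 changed sign. This was largely fixed beforehand, so it lends no support. Several settings change only the estimate of the spread, and groups without overlap keep their order when 1 array is left out. When any 1 array was left out, the Hpgd difference stayed between 0.88 and 1.10 for Q111 with mGluR5 and for mGluR5 loss in Q20. In the same fits, Pla2g4e stayed between 0.99 and 1.17 for Q111 without mGluR5 and for mGluR5 loss in Q111. Gdpd3 stayed between 2.36 and 2.55 for Q111 without mGluR5, but its averaged Q111 difference ran from 1.58 to 2.09. Calls of the 4 chosen genes were both lost and gained over the alternatives, and are not read. Of the tested genes, Pla2g4a for Q111 without mGluR5 was gained with array weights (adjusted p of 0.00347 in limma). Ptger4 for Q111 without mGluR5 was gained with the replicate block (0.0280), the interquartile range (0.0272) and array weights (0.0137), and its averaged Q111 difference with array weights (0.0170).

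Counts of other pathway genes called depended on the model, and the cause was not tested. The share of all tested genes called under each alternative is not given here. Nothing about the pathway is therefore read from these counts. For Q111 against Q20 with mGluR5 (0 called), there were 4 with the replicate block, 3 with the interquartile range as covariate and 9 with array weights. For Q111 against Q20 without mGluR5 (0), these were 1, 3 and 11. For loss of mGluR5 in Q20 (1), these were 2, 2 and 3, with 2 under the 50th percentile filter, quantile normalization or an intensity trend and 0 with the unmoderated model. For loss of mGluR5 in Q111 (0), the interquartile range gave 1 and array weights 8. For the interaction (0), the replicate block, the interquartile range and array weights gave 1, 1 and 2. For the averaged Q111 difference (0), they gave 2, 2 and 16. For the averaged mGluR5 difference (1), the interquartile range gave 2, array weights 3, and median centring and the unmoderated model 0. Leaving out 1 array gave 0 to 2 for loss of mGluR5 in Q20, 0 to 3 for the averaged Q111 difference, 0 to 1 for the averaged mGluR5 difference, and 0 for the other 4 comparisons.

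Correlations of deviations between arrays with the same replicate number ran from -0.14 to 0.57. The labels name no pairing, and the main fit did not take the numbers as pairs. Those between the arrays numbered 2 were 0.34 to 0.57, and those between arrays of different numbers -0.56 to 0.45. Between the arrays numbered 1 they were -0.04 to 0.22, and between those numbered 3 they were -0.14 to 0.46. A component shared by the arrays numbered 2 was therefore left in the main fit, and its source was not tested. Calls that changed with the replicate block are given above. Signals near the 25th percentile of an array, as for Gdpd3 in Q20 mGluR5-/-, limit what can be said of size.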
